A study of Mus musculus with 4 samples.

Results

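The thrombospondins, SPARC proteins, tenascins and periostin are matricellular proteins, which are secreted into the extracellular matrix and bind collagen, growth factors and cell surface receptors rather than bearing load themselves. Transcripts of 10 of their genes, Thbs1, Thbs2, Thbs3, Thbs4, Comp, Sparc, Sparcl1, Tnc, Tnxb and Postn, were followed across the cells of the mouse Achilles tendon, which ties the calf muscles to the heel. The genes were chosen by name, and each of the 10 was found among the 15746 genes of the count table. Cells came from Achilles tendons of male C57Bl/6 mice aged 6 weeks, with no treatment named, and were sequenced as 4 libraries with droplet-based 3-prime chemistry (10x Genomics Chromium). All 4 libraries belong to 1 group. The labels do not say whether they are separate mice, so every p-value below measures the spread between these libraries, which may be technical.

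In tendon, matricellular proteins are best known from collagen fibril assembly and from the response to load and injury. Thrombospondins 1 and 2 form trimers (subgroup A) and act on vessel growth and, in the case of thrombospondin 1, on the activation of latent TGF-beta. Thrombospondins 3 and 4 and cartilage oligomeric matrix protein, the product of Comp, form pentamers (subgroup B), and the last is among the abundant non-collagenous proteins of tendon. SPARC is a collagen-binding chaperone of the matrix, and SPARC-like 1 is its closest relative. Tenascin C appears at sites of remodelling and at the muscle end of tendons, tenascin X binds fibrillar collagen and its loss causes a form of Ehlers-Danlos syndrome, and periostin binds collagen and tenascin C.

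The table held 1191 cells, with 580, 246, 256 and 109 in libraries 1 to 4, and 1375111 to 5603366 unique molecular identifiers (UMIs, each standing for 1 captured transcript) per library. No cell barcode was shared between libraries. The authors' annotation gives 13 populations: tendon fibroblasts 1 to 3, bursal fibroblasts (from the fluid-filled pad beside the tendon), endothelial cells 1 to 3, pericytes, nerve cells 1 to 3, immune cells and red blood cells. Markers of the named cell types were found in each population (Thbs4 is itself on the tendon list), with Prg4, Clic5 and Cd55 summing to 104414 to 196213 CPM (UMIs of a gene scaled to 1000000 UMIs of the sum) in bursal fibroblasts against at most 8838 in tendon fibroblasts 1. A joint list for pericytes or smooth muscle, which does not tell them apart, summed to 13122 to 21611 CPM in pericytes. In any other population it summed to at most 1279.8 CPM, in endothelial cells 2. Tnmd was at 0 in bursal fibroblasts and Mkx at 0 in tendon fibroblasts 3. Cell numbers set the precision: tendon fibroblasts 2 had 67, 2, 78 and 9 cells in libraries 1 to 4, bursal fibroblasts 30, 0, 5 and 5, and tendon fibroblasts 3 reached 5 cells in library 1 alone. Levels are CPM of the UMIs summed per library and population, given for sums of 5 or more cells, and they compare 1 gene between populations, not 1 gene with another. A sum cannot tell fewer cells with a transcript from fewer transcripts per cell, so shares of cells are given too.

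**Figure D1:**
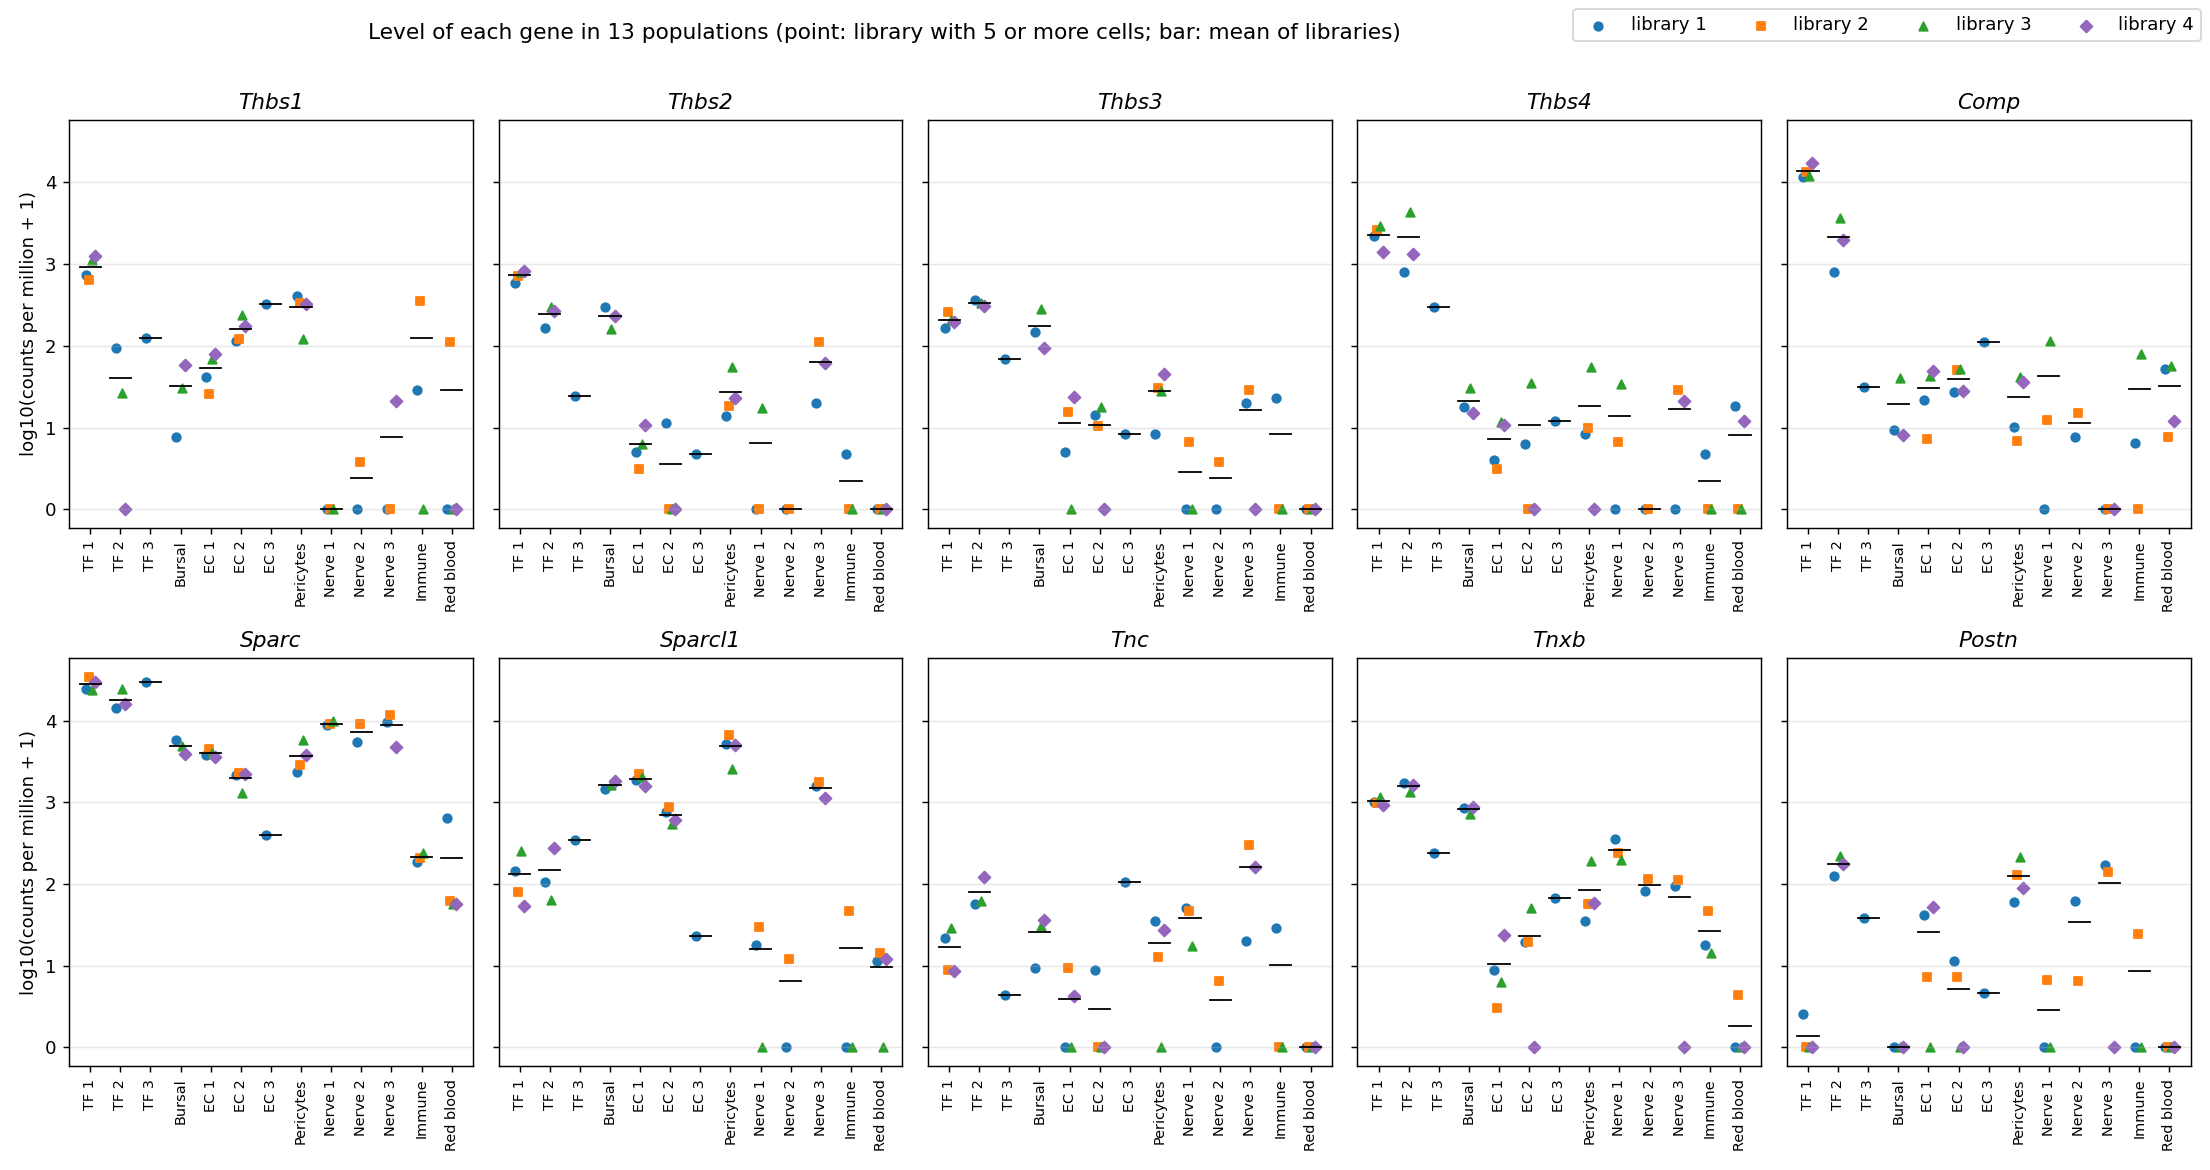
Level of each of the 10 genes in the 13 populations, as log10(CPM + 1) on the vertical axis, with 1 point per library that has 5 or more cells of the population and a bar at the mean of the libraries (TF, tendon fibroblasts; EC, endothelial cells). Comp and Thbs4 stand high in tendon fibroblasts 1 and 2, Sparcl1 stands highest in pericytes, and Postn is at 0 in bursal fibroblasts.

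Of the subgroup A genes, Thbs1 was highest in tendon fibroblasts 1. Its level there was 729, 633, 1108 and 1246 CPM in libraries 1 to 4. All 4 values lay above those of every other population. Pericytes followed among the populations with 3 or more libraries, at 407, 329.6, 121 and 327 CPM. Endothelial cells 2 stood at 161 ± 56.6 CPM (SD, n = 4) and endothelial cells 1 at 52.9 ± 24.4 (SD, n = 4). Endothelial cells 3 had 326 CPM in library 1, from 88 UMIs of which 45 came from 1 cell and 28 from another, and without both cells the level was 73.1 CPM. Nerve cells 1 had 0 Thbs1 UMIs in all 3 of their libraries, and nerve cells 2 and 3 had 1 UMI each.

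Thbs2 was also highest in tendon fibroblasts 1, at 594, 719, 807 and 823 CPM in libraries 1 to 4. Tendon fibroblasts 2 held 164, 299 and 266 CPM in libraries 1, 3 and 4, and bursal fibroblasts 298, 159 and 228. These 2 populations overlapped, and both lay below each value of tendon fibroblasts 1. Nerve cells 3 came next at 63.2 ± 45.6 CPM (SD, n = 3), from 8 UMIs, and endothelial cells 1 and 2 stood at 5.25 ± 3.23 and 2.62 ± 5.23 CPM (SD, n = 4 each). The thrombospondins of subgroup A thus shared their highest population but not their second: Thbs1 averaged 296 ± 122 CPM in pericytes (SD, n = 4), where Thbs2 averaged 26.5 ± 18.6.

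The subgroup B genes were largely held by fibroblasts. Thbs3 was highest in tendon fibroblasts 2, with 359, 337 and 306 CPM in libraries 1, 3 and 4, followed by tendon fibroblasts 1 with 162, 258, 208 and 193 CPM in libraries 1 to 4. The 2 ranges did not overlap, while bursal fibroblasts, at 145, 279 and 92.6 CPM in libraries 1, 3 and 4, overlapped with tendon fibroblasts 1. No population outside the fibroblasts had a mean above 26.9 CPM. Exons of Thbs3 overlap those of Mtx1 on the opposite strand by 318 bases, and Mtx1 had 220 UMIs in all libraries against 976 of Thbs3 in tendon fibroblasts alone.

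Thbs4 did not separate tendon fibroblasts 1 from 2. In tendon fibroblasts 1 it stood at 2225, 2633, 2897 and 1397 CPM in libraries 1 to 4. Tendon fibroblasts 2 gave 795, 4363 and 1313 CPM in libraries 1, 3 and 4, so library 3 was higher than every sum of tendon fibroblasts 1, and libraries 1 and 4 were lower than every one. Tendon fibroblasts 3 had 294 CPM in library 1 from 45 cells, above bursal fibroblasts, which had 16.9, 29.9 and 14.2 CPM in libraries 1, 3 and 4. All other populations had means of at most 17.4 CPM.

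Comp reached 11539.9, 13565, 12074 and 17263 CPM in tendon fibroblasts 1. It stood at 798, 3637 and 1957 CPM in tendon fibroblasts 2 of libraries 1, 3 and 4, lowest in the library where Thbs4 was lowest. Tendon fibroblasts 3, by contrast, had 30.4 CPM in library 1, within the range of vessel and blood cells, although their Thbs4 stood above that of those cells. Low Comp counts were met almost everywhere, also in red blood cells, where 138 cells with 50% or more globin UMIs together held 8 Comp UMIs among 24520 UMIs other than globin. Free RNA from broken cells can give such counts, and the red blood cell sums stood at 6.70 to 55.6 CPM (in library 1, 13 of the 15 UMIs came from 1 cell with 0 globin UMIs). Comp values in that range are not read as expression, and a fold change against them is a fold over this low level. Endothelial cells 3 had 111 CPM of Comp in library 1 and 34.4% of 32 cells with a UMI.

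Promoter sequences before the RefSeq start sites (build GRCm38.p6, 250 bases each) were matched for 7 of the 10 genes, and those of 3 genes with distinct fibroblast patterns are shown: Thbs3, highest in tendon fibroblasts 2, Thbs4, high in tendon fibroblasts 1 and 2, and Postn, high in tendon fibroblasts 2 and nearly absent from tendon fibroblasts 1. Capitals mark matches, on either strand, to the TATA box letters TATAAA, to the E-box letters CAGATG, of the class of site bound by basic helix-loop-helix factors such as scleraxis, or to the AP-1 site letters TGANTCA, which were searched without regard to overlap. The Thbs3 window lies at chr3:89214930-89215179 on the plus strand, the Thbs4 window at chr13:92794819-92795068 on the minus strand, and the Postn window at chr3:54360857-54361106 on the plus strand. Postn has a second RefSeq window, at chr3:54359017-54359266, which is not shown and holds none of the 3 motifs.
Thbs3: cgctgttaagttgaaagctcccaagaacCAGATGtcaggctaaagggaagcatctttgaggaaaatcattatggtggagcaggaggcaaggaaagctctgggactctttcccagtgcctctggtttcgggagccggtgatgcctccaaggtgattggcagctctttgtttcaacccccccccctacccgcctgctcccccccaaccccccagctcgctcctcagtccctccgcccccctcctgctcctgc
Thbs4: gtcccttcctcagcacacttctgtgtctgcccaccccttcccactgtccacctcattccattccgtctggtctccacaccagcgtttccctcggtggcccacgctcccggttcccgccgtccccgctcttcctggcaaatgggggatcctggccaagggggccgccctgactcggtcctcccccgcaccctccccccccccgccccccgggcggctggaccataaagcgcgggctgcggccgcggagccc
Postn: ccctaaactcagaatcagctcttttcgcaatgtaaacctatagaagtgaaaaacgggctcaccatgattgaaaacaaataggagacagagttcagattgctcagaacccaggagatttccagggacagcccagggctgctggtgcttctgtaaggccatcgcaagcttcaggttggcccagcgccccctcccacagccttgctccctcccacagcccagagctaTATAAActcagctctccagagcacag
The Postn window shown holds TATAAA starting 26 bases before the start site, a motif found in 12.4% of 32851 promoter windows of this length. The Thbs3 window holds CAGATG, found in 14.4% of windows. The Thbs4 window, with 70.8% G and C, holds none of the 3 motifs, of which TGANTCA is found in 6.75% of windows. These matches describe the letters and were not tested against the levels.

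Sparc was the most widespread of the 10 transcripts. It stood at 24208, 34319, 23494 and 29572 CPM in tendon fibroblasts 1, at 14179, 24034 and 16054 CPM in tendon fibroblasts 2 of libraries 1, 3 and 4, and at 29212 CPM in tendon fibroblasts 3 of library 1. Tendon fibroblasts 1 overlapped with both of the other tendon populations. Nerve cells 1 held 9193 ± 497 CPM (SD, n = 3), above bursal fibroblasts at 4822 ± 914 (SD, n = 3) and endothelial cells 1 at 3988 ± 419.6 (SD, n = 4). Immune cells had 187, 209 and 238 CPM in libraries 1 to 3, against 3773, 4543 and 4059 CPM in endothelial cells 1. After thinning each cell to 2400 UMIs, every cell of the 3 tendon, the bursal and the 3 nerve populations kept a Sparc UMI, against 23.0% of 87 immune cells and 16.0% of 106 red blood cells. Of the 214 Sparc UMIs of red blood cells, 25 lay in the 138 globin-rich cells and 169 in 1 cell with 0 globin UMIs.

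Sparcl1, unlike Sparc, was higher in pericytes, endothelial cells 1 and bursal fibroblasts than in tendon fibroblasts. Pericytes held 5161, 6655, 2568 and 5057 CPM in libraries 1 to 4, and endothelial cells 1 held 1855, 2193, 2021 and 1586. Bursal fibroblasts stood at 1442, 1604 and 1844 CPM, overlapping with endothelial cells 1, whereas tendon fibroblasts 1 stood at 142, 78.1, 252 and 52.9 and tendon fibroblasts 2 at 106, 62.8 and 274. The nerve populations differed among themselves. Nerve cells 3 had 1588, 1761 and 1131 CPM in libraries 1, 2 and 4, against 16.7, 28.4 and 0 CPM in libraries 1 to 3 of nerve cells 1 and 0 and 11.1 CPM in libraries 1 and 2 of nerve cells 2. A Sparcl1 UMI was kept by 94.7% of 19 thinned cells of nerve cells 3, by 4.26% of 47 of nerve cells 1 and by 2.22% of 45 of nerve cells 2. Nerve cells 3 had a median of 2591 UMIs per cell, and thinning left out the shallower of their 32 cells. Over all cells the shares were 78.1%, 12.2% and 8.70% unthinned, and 68.8%, 2.04% and 0% after thinning to 1000 UMIs, in the same order.

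Of the tenascin genes, Tnxb was highest in tendon fibroblasts 2, with 1742, 1326 and 1619 CPM in libraries 1, 3 and 4. Tendon fibroblasts 1 followed at 1010.5, 977, 1166 and 936 CPM and bursal fibroblasts at 857, 727 and 883, with no overlap between these 3 populations. Nerve cells 1 had 350.1, 239 and 196 CPM, more than any vessel sum, which ranged up to 188 CPM in the pericytes of library 3. Tnc was sparse everywhere. Its level was 56.4, 60.4 and 121 CPM in tendon fibroblasts 2 and 20.7, 7.81, 28.3 and 7.55 CPM in tendon fibroblasts 1. The mean was highest in nerve cells 3, at 18.9, 303 and 162 CPM in libraries 1, 2 and 4, but rested on 20 UMIs, and its range overlapped with tendon fibroblasts 2.

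Among fibroblasts, Postn was found mainly in tendon fibroblasts 2, with 126, 217 and 177 CPM in libraries 1, 3 and 4. Tendon fibroblasts 3 had 37.1 CPM in library 1, from 11 UMIs. Tendon fibroblasts 1 had 1 UMI in 173 cells, in library 1, and bursal fibroblasts had 0 UMIs in 40 cells. Outside the fibroblasts, pericytes held 59.9, 128, 215 and 88.3 CPM, a range that overlapped with tendon fibroblasts 2, and nerve cells 3 held 170.1, 138 and 0 CPM in libraries 1, 2 and 4, from 14 UMIs. Thinned to equal depth, 22.3% of 148 cells of tendon fibroblasts 2 kept a Postn UMI, with 20.6%, 24% and 25% in libraries 1, 3 and 4, against 0 of 161 cells of tendon fibroblasts 1, for which the exact Clopper-Pearson 95% interval reaches 2.27%.

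**Figure D2:**
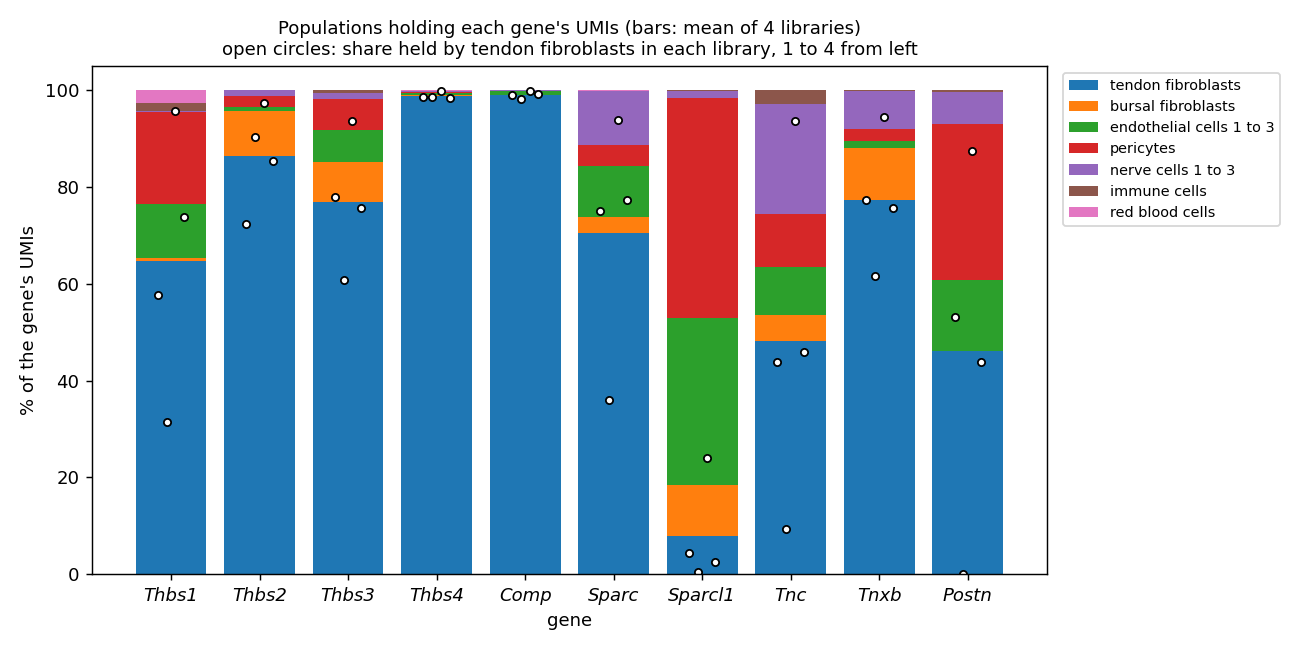
Percent of each gene's UMIs held by each group of populations, as the mean of the 4 libraries (stacked bars), with open circles for the share held by tendon fibroblasts in libraries 1 to 4 from left to right. Comp and Thbs4 circles lie at 98.1% or more, while those of Sparcl1 lie at 23.9% or less.

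Seen from the whole tissue, tendon fibroblasts were 32.0% ± 23.7 of the cells and 34.9% ± 26.3 of the UMIs (SD, n = 4 libraries). They held 99.0% ± 0.663 of Comp and 98.8% ± 0.646 of Thbs4 transcripts, with every library at 98.1% or more although tendon fibroblasts made up 5.69% of the cells in library 2 and 63.3% in library 3. Shares of Thbs2 (86.3% ± 10.6), Tnxb (77.3% ± 13.5), Thbs3 (76.9% ± 13.4), Sparc (70.5% ± 24.6) and Thbs1 (64.6% ± 27.1) followed. Those of Tnc (48.2% ± 34.6) and Postn (46.1% ± 36.0) were lower still, from 0 of the Postn UMIs in library 2 to 87.4% in library 3. Shares of these 7 genes were highest in library 3, where tendon fibroblasts were the largest percent of the cells. All but that of Thbs2 were lowest in library 2, where tendon fibroblasts were the smallest percent. Pericytes, 9.66% ± 4.25 of the cells, held 45.4% ± 18.9 of Sparcl1, 32.3% ± 30.6 of Postn and 19.1% ± 14.8 of Thbs1 transcripts.

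Tests of these differences used edgeR's quasi-likelihood test on the sums, with the library as a block and Benjamini-Hochberg adjustment over all genes tested, and a gene is called at an adjusted p under 0.05. The authors formed the populations from the same counts, so a test gives the size of a difference against the spread between libraries and does not ask whether the populations exist. Several comparisons share sums: tendon fibroblasts 1, tendon fibroblasts 2, bursal fibroblasts and endothelial cells 1 each enter more than 1. A filter on low counts came first, and it can keep a gene for its counts on 1 side alone. Counts of calls and medians thus describe the genes that passed and do not speak for the others.

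Tendon fibroblasts 1 to 3, taken as 1 sum per library, carried more transcript than all other cells for 9 of the 10 genes and less for Sparcl1. This does not hold for each tendon population. Tendon fibroblasts 2 held 113 of the 151 Tnc UMIs and 307 of the 334 Postn UMIs of tendon fibroblasts. Tendon fibroblasts 1 averaged 16.1 CPM of Tnc and 0.398 of Postn, against 15.4 and 33.5 CPM in all other cells. Each of the 10 passed the filter on low counts and each was called, 9 higher and 1 lower. Over the 9541 genes tested, 29.4% were called, 13.5% as higher and 15.9% as lower in tendon fibroblasts. The median log2 fold change of the 10 genes was 3.19, beside -0.01 for all genes tested. The subgroup B genes Comp and Thbs4 had the largest values of the 10, with Comp at a log2 fold change of 8.23 ± 0.41 (SE, adjusted p = 2.4e-06) and Thbs4 at 8.07 ± 0.40 (adjusted p = 2.4e-06), both higher in 4 of 4 libraries. The Comp level of all other cells, 16.4 to 60.8 CPM, was near that of red blood cells. Thbs2 (4.27), Tnxb (3.46), Thbs3 (3.34), Sparc (3.04) and Thbs1 (2.71) were higher in 4 of 4 libraries with no overlap between the sides and adjusted p-values from 6.2e-06 to 3.9e-04. Tnc was higher by 1.40 ± 0.33 (adjusted p = 0.0120) and in 4 of 4 libraries, with overlapping ranges. Sparcl1 was lower by a log2 fold change of -3.30 ± 0.26 (adjusted p = 2.6e-05) in 4 of 4 libraries, at a mean of 134 against 1643 CPM. Postn, at 1.25 ± 0.40 (adjusted p = 0.0427), was higher in 3 of 4 libraries and lost the call with DESeq2 (adjusted p = 0.387), with cells thinned to equal depth (0.0591) and without library 1 (0.226), 3 (0.218) or 4 (0.119). In library 2, which had 2 cells of tendon fibroblasts 2, tendon fibroblasts held 0 Postn UMIs.

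Among 21 other matricellular genes, 19 were tested here and 17 called, 15 of them higher, among them Smoc2, a secreted relative of SPARC, at 8.46 and the fibulin gene Fbln1 at 6.64 on the log2 scale, while Fbln5 was lower at -0.98. Their median was 1.85. Of 22 genes for receptors and binding partners, 19 were tested and 13 called, 8 higher and 5 lower, with a median of 0.53. Higher were Lrp1 (2.45), an endocytic receptor that clears thrombospondins, and Bmp1 (2.37), a protease that processes matrix proteins, and lower were Cd36 (-7.82), a thrombospondin 1 receptor, and Stab1 (-4.70), a scavenger receptor that takes up SPARC. Cd36 stood at a mean of 1509.8 CPM outside tendon fibroblasts and 7.64 CPM within, while Thbs1 stood at 98.4 and 554 CPM.

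**Figure D3:**
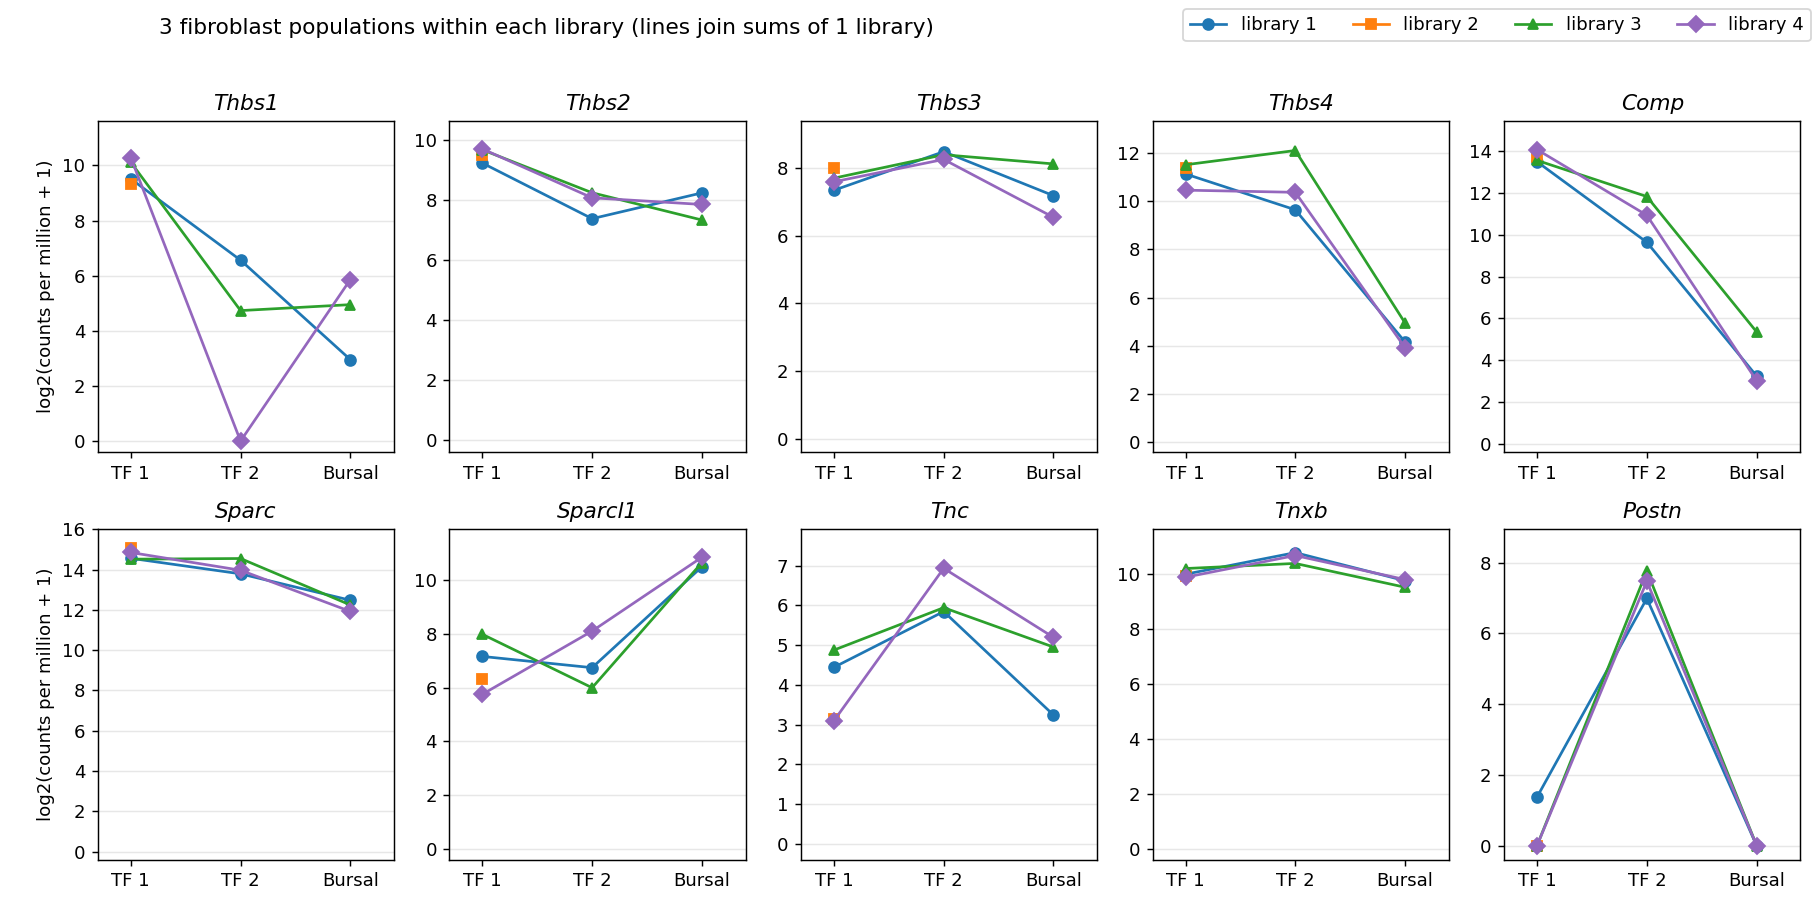
Each gene in tendon fibroblasts 1 (TF 1), tendon fibroblasts 2 (TF 2) and bursal fibroblasts, as log2(CPM + 1), with lines joining sums of the same library; library 2 has a sum of tendon fibroblasts 1 alone. Comp descends across the 3 populations in each library, Sparcl1 stands above both tendon populations in bursal fibroblasts, and Postn peaks in tendon fibroblasts 2.

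Between tendon fibroblasts 1 and 2, in the 3 libraries with 5 or more cells of both, Thbs1, Thbs2 and Comp were higher in tendon fibroblasts 1 and Postn was lower. Each of the 10 genes was tested and 4 were called, 3 higher and 1 lower, beside 8.12% of all 7043 genes tested (4.33% higher, 3.79% lower). The median log2 fold change of the 10 was 0.54 and that of all genes 0.01. Thbs1 averaged 1028 ± 268 against 39.7 ± 48.3 CPM (SD, n = 3), a log2 fold change of 4.70 ± 0.59 (SE, adjusted p = 0.00119). Thbs2 averaged 741 ± 128 against 243 ± 70.3 CPM, a log2 fold change of 1.83 ± 0.22 (adjusted p = 0.00104). Comp differed by 3.12 ± 0.44 (adjusted p = 0.00200). For Postn, 1 UMI stood against 307, a ratio of CPM of 284 with an exact 95% interval from 50.7 to 11269 that covers counting error (adjusted p = 6.2e-05). Each of these 4 kept its direction in 3 of 3 libraries with no overlap between the populations.

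Thbs3, Tnc and Tnxb were lower in tendon fibroblasts 1 in 3 of 3 libraries, with no overlap, but were not called. Thbs3 had a log2 fold change of -0.66 ± 0.21 (adjusted p = 0.108) and was called where populations were rebuilt from a random part of the UMIs and tested on the rest (-0.86, adjusted p = 0.0327). Tnc had -1.49 ± 0.40 (adjusted p = 0.0550) and passed with no low-count filter (adjusted p = 5.3e-04) or no library block (0.0403). Tnxb had -0.38 ± 0.21 (adjusted p = 0.383). Sparc, at 0.74 ± 0.30 (adjusted p = 0.209), was called without the filter (0.0258) and without library 3 (0.0150), where alone it was not higher in tendon fibroblasts 1. Thbs4 (0.52 ± 0.39, adjusted p = 0.563) and Sparcl1 (0.55 ± 0.57, adjusted p = 0.700) had overlapping ranges and no common direction over the libraries. The summed level of 16 genes that respond to tissue dissociation was 4992 to 10130.1 CPM in tendon fibroblasts 1 and 4165 to 6696 in tendon fibroblasts 2, and its part in the Thbs1 difference was not tested.

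Of the other matricellular genes, 16 were tested and 12 called, 3 higher in tendon fibroblasts 1 and 9 lower, with a median of -1.41, opposite in sign to the median of the 10 genes above. The osteopontin gene Spp1 (9.46) and Ctgf (3.74), the gene of a TGF-beta-responsive matricellular protein, had the largest rises, and Fbln7 (-3.66) and the spondin gene Spon1 (-3.59) the largest falls. Of the receptors and partners, 13 were tested and 3 called, 1 higher and 2 lower (median -0.12), among them the heparan sulfate proteoglycan gene Sdc1 (1.72) and Bmp1 (-1.68).

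Against bursal fibroblasts, tendon fibroblasts 1 had more Thbs1, Thbs2, Thbs4, Comp and Sparc and less Sparcl1. Of the 10 genes 9 were tested, since Postn had 1 and 0 UMIs, and 6 were called, 5 higher and 1 lower, beside 15.0% of 5186 genes (8.99% higher, 6.00% lower). Comp had 20781 UMIs against 10 and a log2 fold change of 9.97 ± 0.55 (SE, adjusted p = 8.3e-08), the bursal values of 8.45, 39.9 and 7.12 CPM lying within the range of red blood cells. Thbs4 followed at 6.93 ± 0.41 (adjusted p = 1.1e-07) and Thbs1 at 5.58 ± 0.45 (adjusted p = 1.2e-06). The bursal Thbs4 values of 16.9, 29.9 and 14.2 CPM overlapped with those of red blood cells (0 to 17.2 CPM). That overlap rests on library 1, where 3 of the 5 red blood cell UMIs came from 1 cell with 0 globin UMIs. The next highest red blood cell value was 11.1 CPM, in library 4. The summed dissociation genes were 8233, 10130.1 and 4992 CPM in tendon fibroblasts 1 of libraries 1, 3 and 4 and 1216, 5281 and 3240.0 in bursal fibroblasts, and their part in the Thbs1 difference was not tested. Sparc differed by 2.60 ± 0.34 (adjusted p = 8.0e-05) and Thbs2 by 1.84 ± 0.35 (adjusted p = 0.00214). Sparcl1, at a mean of 149 against 1630.3 CPM, was lower by a log2 fold change of -3.43 ± 0.43 (adjusted p = 5.9e-05). All 6 had the same direction in 3 of 3 libraries. Thbs3 (0.36 ± 0.33, adjusted p = 0.565), Tnxb (0.50 ± 0.30, adjusted p = 0.333) and Tnc (0.20 ± 0.63, adjusted p = 0.888) were not called. The median log2 fold change was 1.84 for the 9 tested and 0.02 for all genes.

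Of the other matricellular genes 14 were tested against bursal fibroblasts and 11 called, 5 higher and 6 lower (median -0.90), led by Spp1 (9.81) and Fbln1 (4.38) as higher and by the matrilin gene Matn4 (-4.76) and Fbln7 (-4.65) as lower. Among 12 receptors and partners tested 2 were called, Sdc1 as higher (402 against 103 UMIs) and the laminin receptor subunit gene Itga6 as lower (-5.96), with a median of -0.29.

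Tendon fibroblasts 2 differed from bursal fibroblasts in partly other genes. Each of the 10 was tested and 6 were called, 5 higher and 1 lower, beside 6.45% of 4960 genes (4.15% higher, 2.30% lower), with a median of 1.53 against 0.00 for all genes. Comp (6.82 ± 0.50, adjusted p = 1.1e-04) and Thbs4 (6.25 ± 0.53, adjusted p = 1.2e-04) were higher, over the same low bursal levels, and Sparcl1 lower (-3.74 ± 0.43, adjusted p = 5.5e-04) in 3 of 3 libraries. Postn had 307 UMIs against 0 and was at least 48.2-fold higher, computed against a floor of 3 counts over the bursal sums (adjusted p = 4.6e-04). Sparc was higher by 1.89 ± 0.48 (adjusted p = 0.0415), a call lost without library 1 (0.0570), 3 (0.246) or 4 (0.379). Tnc was higher by 1.92 ± 0.44 (adjusted p = 0.0256), a call lost with DESeq2 (0.154), without the block (0.0802) and without library 4 (0.116). Thbs1 (1.16 ± 0.94, adjusted p = 0.620) and Thbs2 (0.01 ± 0.44, adjusted p = 0.997) were not called. For Thbs3 the log2 fold change was 1.06 ± 0.33 (adjusted p = 0.102), called without the filter (0.0465) and without library 3 (0.0428), and for Tnxb 0.92 ± 0.33 (adjusted p = 0.156). Both were higher in 3 of 3 libraries. Of the other matricellular genes 14 were tested and 8 called, 5 higher and 3 lower (median 1.11), with Fbln2 (4.67) and Fbln1 (3.96) as the largest rises and Matn4 (-5.49) and Ctgf (-4.31) as the largest falls. Of 13 receptors and partners tested, Itga6 alone was called, as lower (-4.06), and their median was -0.30.

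**Figure D4:**
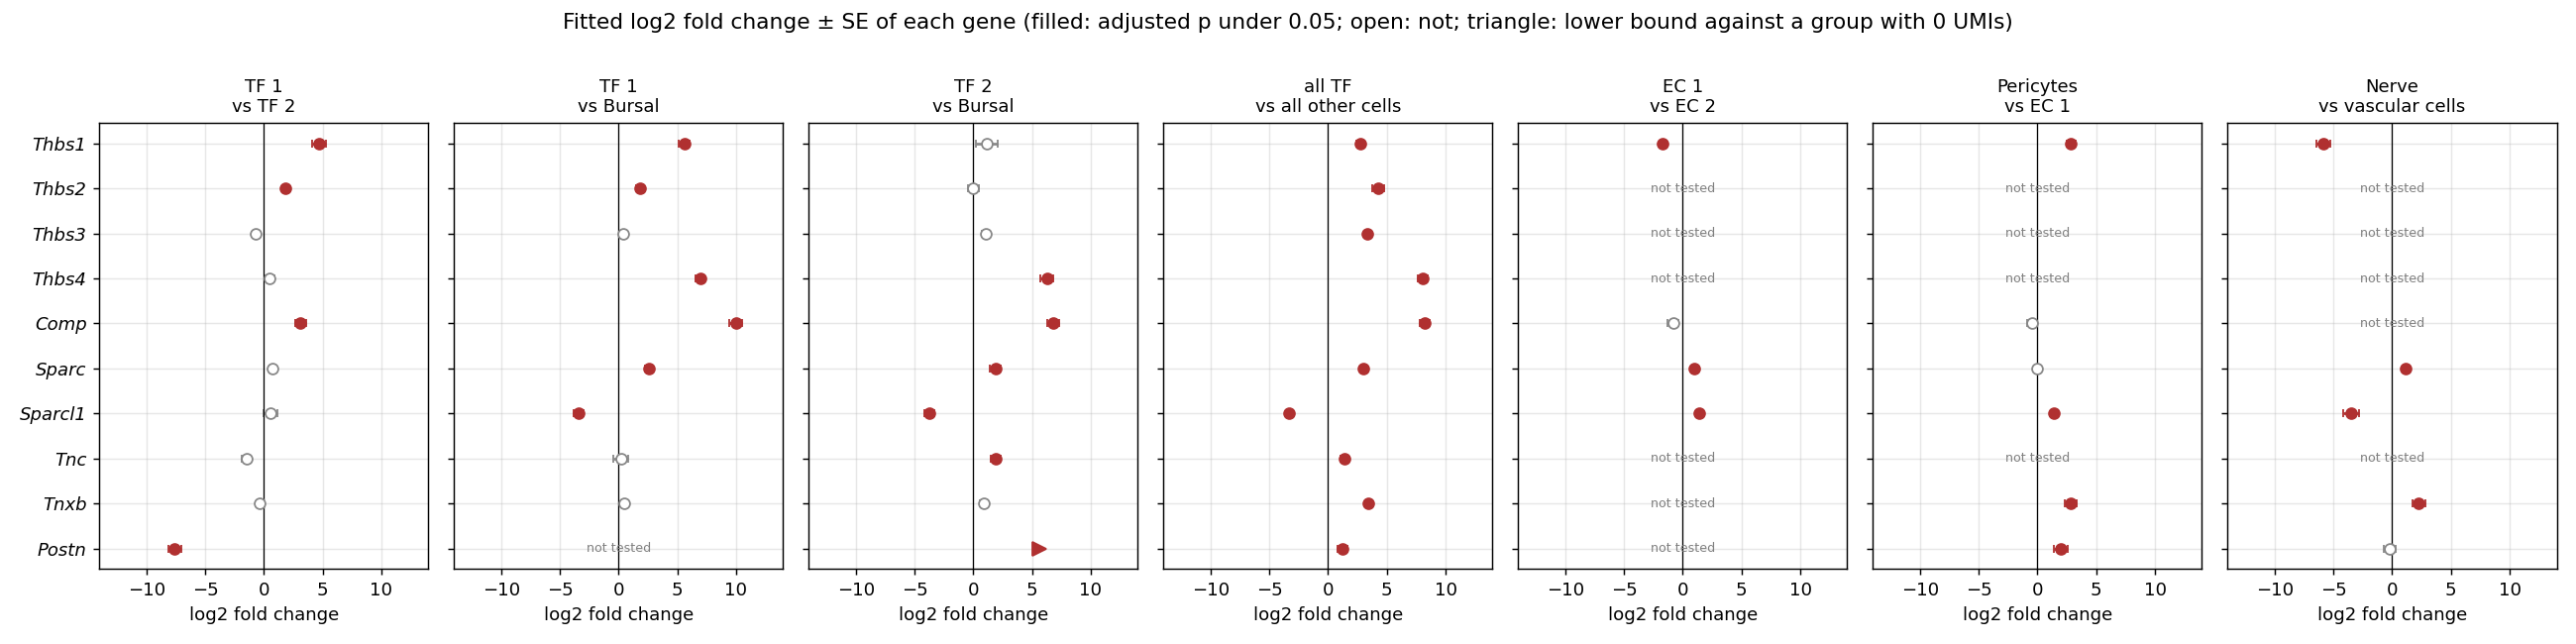
Fitted log2 fold change ± SE of each gene in the 7 comparisons (TF, tendon fibroblasts; EC, endothelial cells), with filled points where the adjusted p is under 0.05, open points where it is not, and a triangle for the lower bound of Postn against bursal fibroblasts with 0 UMIs. Sparcl1 lies left of 0 against bursal fibroblasts and against all other cells, and Thbs1 lies left of 0 in nerve cells against vascular cells.

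In the vessel wall, endothelial cells 1 had more Sparc and Sparcl1 and less Thbs1 than endothelial cells 2. Of the 10 genes 4 passed the filter and 3 were called, 2 higher and 1 lower, beside 18.2% of 5126 genes (7.74% higher, 10.5% lower). Sparcl1 differed by a log2 fold change of 1.37 ± 0.15 (SE, adjusted p = 5.1e-06) and Sparc by 0.96 ± 0.15 (adjusted p = 1.8e-04), both higher in 4 of 4 libraries. Thbs1, known as an inhibitor of angiogenesis, was at 40.5, 24.9, 68.6 and 77.4 CPM in endothelial cells 1 and at 115, 119, 235 and 176 CPM in endothelial cells 2. The ranges did not overlap, and the log2 fold change was -1.72 ± 0.25 (adjusted p = 6.9e-05). With populations rebuilt from a part of the UMIs the value was -0.75 and the call was lost (adjusted p = 0.165). The summed dissociation genes were 5071 to 8417 CPM in endothelial cells 1 and 9016 to 11539 in endothelial cells 2, and their part in the Thbs1 difference was not tested. Comp, at -0.83 ± 0.48 (adjusted p = 0.291), was not called. The median of the 4 was 0.06 and that of all genes 0.02. Of 7 other matricellular genes tested, 5 were called, each of them lower, such as Ctgf (-1.35) and the follistatin-like gene Fstl1 (-0.85), with a median of -0.85. Of 9 receptors and partners 6 were called, Cd36 as higher (1.04) and 5 as lower, led by Stab1 (-1.40) and Itga3 (-1.26), with a median of -0.54.

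Pericytes, which wrap the endothelium, had more Thbs1, Sparcl1, Tnxb and Postn than endothelial cells 1. Of 6 genes tested 4 were called, 4 higher and 0 lower, beside 34.2% of 5493 genes (16.6% higher, 17.6% lower). Thbs1 differed by a log2 fold change of 2.87 ± 0.38 (SE, adjusted p = 2.3e-04), Tnxb by 2.84 ± 0.52 (adjusted p = 0.00167) and Sparcl1 by 1.42 ± 0.23 (adjusted p = 8.4e-04), each higher in 4 of 4 libraries with no overlap. A single pericyte of library 1 held 98 of the 224 Thbs1 UMIs of that sum, which stood at 233 CPM without it. Postn was higher by 1.99 ± 0.60 (adjusted p = 0.0269), a call lost without library 2 (1.45, adjusted p = 0.110). Sparc (-0.07 ± 0.19, adjusted p = 0.812) and Comp (-0.46 ± 0.43, adjusted p = 0.455) were not called. Summed dissociation genes reached 11949, 14262, 6534 and 13392 CPM in pericytes of libraries 1 to 4, beside 407, 329.6, 121 and 327 CPM of Thbs1. In endothelial cells 1 they reached 5071 to 8417 CPM, and their part in the Thbs1 difference was not tested. The median of the 6 was 1.70 beside -0.01 for all genes.

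Of the other matricellular genes 7 were tested between pericytes and endothelial cells 1 and 5 called, 4 higher and 1 lower (median 1.24), with Ctgf (1.53) and Fstl1 (1.37) as higher and Fbln2 (-2.80) as lower. Of 15 receptors and partners 10 were called, 6 higher and 4 lower (median 0.56). The gene of the integrin subunit alpha 8, Itga8, had 273 UMIs against 0, and Cacna2d1, whose calcium channel subunit binds thrombospondins, 189 against 2. Cd36 (-3.81) and Itga6 (-2.64) were lower in pericytes.

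Nerve cells 1 to 3 together, set against endothelial cells 1 and 2 and pericytes together, had less Thbs1 and Sparcl1 and more Sparc and Tnxb. The nerve sums were unlike mixtures. Nerve cells 1, 2 and 3 gave 15, 19 and 15 cells in library 1 and 23, 24 and 12 in library 2. They gave 10, 3 and 0 cells in library 3 and 1, 0 and 5 in library 4. Nerve Sparcl1 was 12.4 CPM in library 3 and 1071 in library 4, where Tnxb was 0. The part of the mixture in the spread between libraries was not tested. Of 5 genes tested 4 were called, 2 higher and 2 lower, beside 29.0% of 6551 genes (12.0% higher, 17.1% lower), with a median of -0.19 beside -0.11 for all genes. Thbs1 had 2 UMIs against 619, a ratio of CPM of 74.5 with an exact 95% interval from 20.5 to 616 (adjusted p = 1.6e-04), and was lower in 4 of 4 libraries. The summed dissociation genes were 717 to 1988 CPM in nerve cells 1, 15383 to 20942 in nerve cells 2 and 12921 to 33022 in nerve cells 3. In endothelial cells 1, endothelial cells 2 and pericytes they were 5071 to 8417, 9016 to 11539 and 6534 to 14262 CPM. Their part in the Thbs1 difference was not tested. Sparcl1 was lower by a log2 fold change of -3.50 ± 0.66 (SE, adjusted p = 0.00356), although nerve cells 3 alone stood at vessel levels. Sparc was higher by 1.15 ± 0.26 (adjusted p = 0.00900) in 4 of 4 libraries, a call lost without library 1 (0.0839) or 2 (0.0768). Tnxb was higher by 2.27 ± 0.55 (adjusted p = 0.0135) in 3 of 4 libraries, also lost without library 1 (0.149) or 2 (0.134). Postn (-0.19 ± 0.48, adjusted p = 0.821) was not called. Of 9 other matricellular genes 5 were called, 2 higher and 3 lower (median -0.74), with Spp1 (5.73) and Matn2 (4.92) as higher and Ctgf (-4.36) and Fbln2 (-3.58) as lower. Of 16 receptors and partners 10 were called, 3 higher and 7 lower (median -0.48), with the syndecan gene Sdc4 (4.49) and the integrin gene Itgav (3.58) as higher and Cd36 (-7.68) as lower.

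**Figure D5:**
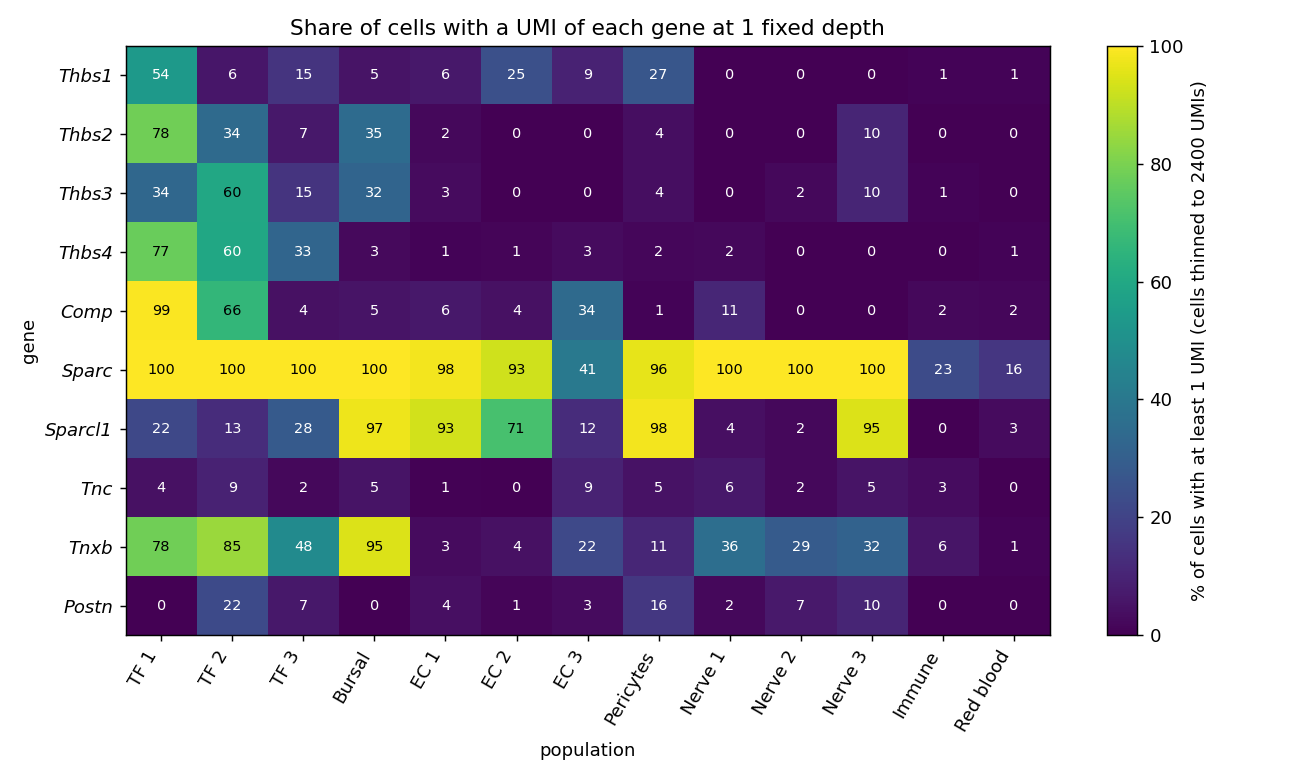
Percent of cells with at least 1 UMI of each gene after thinning every cell to 2400 UMIs, by gene (rows) and population (columns), printed in each field and shown by color (TF, tendon fibroblasts; EC, endothelial cells). Sparc is found in 100% of cells in 7 populations, and Thbs1 falls from 54.0% of tendon fibroblasts 1 to 6.08% of tendon fibroblasts 2.

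Shares of cells at the fixed depth of 2400 UMIs show how levels were spread over cells. A Comp UMI was kept by 99.4% of 161 cells of tendon fibroblasts 1 and 66.2% of 148 cells of tendon fibroblasts 2. In the latter it was kept by 36.5% of 63, 90.7% of 75 and 87.5% of 8 cells in libraries 1, 3 and 4. Thbs4 was kept by 30.2%, 85.3% and 50% of the same cells, against 66.7% to 78.9% in tendon fibroblasts 1. For comparison, 1.89% of 106 red blood cells kept a Comp UMI and 0.943% a Thbs4 UMI. Unthinned, 99.4% and 72.4% of tendon fibroblasts 1 and 2 had a Comp UMI, with medians of 8824 and 10662 UMIs per cell. Thbs1 was kept by 54.0% of tendon fibroblasts 1 (74.6% unthinned) and 6.08% of tendon fibroblasts 2 (14.7% unthinned), Thbs2 by 78.3% and 34.5%, and Thbs3, in the other order, by 33.5% and 60.1%.

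Some transcripts were concentrated in few cells. The tenth of cells with the most UMIs of a gene held 54.8% of Thbs4 and 52.2% of Thbs1 in tendon fibroblasts 1, but 34.7% of Comp and 31.7% of Thbs2. In tendon fibroblasts 2 it held 92.6% of the 95 Thbs1 UMIs and 72.3% of the 307 Postn UMIs, and in pericytes 70.5% of the 420 Thbs1 UMIs. Within tendon fibroblasts 2, 52.7% of thinned cells kept both a Thbs4 and a Comp UMI, beside 39.4% given by the product of the single shares. Much of that gap lay between libraries: within libraries 1, 3 and 4 the shares with both were 19.0%, 82.7% and 50%, beside products of 11.0%, 77.4% and 43.8%. In tendon fibroblasts 1, 76.4% kept both, beside a product of 76.5%. Since 99.4% of these cells kept a Comp UMI, the share with both could hardly differ from the product. It thus does not show how Thbs4 and Comp relate there.

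Across 39 sums per library and population, the patterns of the 10 genes were compared by Pearson's correlation of log2(CPM + 1), as a description, since sums of 1 library share its cells' handling and sums of 1 population share their cell type. Within the 45 pairs, Thbs2 was most like Thbs3 (r = 0.83) and Thbs4 (0.81), Thbs4 was like Comp (0.79), and Thbs3 was like Tnxb (0.77), while Comp and Sparcl1 had the lowest value (-0.12). Among 4525 other genes with a mean of 100 or more CPM in some population, those most like Comp were Cilp (0.897), Angptl7 (0.894) and Myoc (0.879). Thbs4 was most like Itgbl1 (0.879), Dcn (0.876) and Clec11a (0.865). For Thbs2 they were Gas1 (0.882), Col6a3 (0.879) and Angptl2 (0.865), and for Thbs3 Col6a1 (0.875), Atf5 (0.866) and Ddr2 (0.850). Tnxb was most like the fibrillar collagen genes Col5a2 (0.892), Col1a1 (0.825) and Col5a1 (0.817). Sparc followed Gpx8 (0.886), Auts2 (0.869) and Prnp (0.865), and Sparcl1 followed Sorbs2 (0.845), Osmr (0.818) and Efnb2 (0.789). The closest genes were less close for Thbs1 (Slc29a1, 0.782, Trim47, 0.749, and Mfge8, 0.746), Tnc (Prkca, 0.772, Reck, 0.748, and Antxr1, 0.702) and Postn (Ntrk2, 0.787, C1s1, 0.759, and Steap4, 0.697).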

How the data were processed

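Single-cell 3-prime transcripts were measured in 4 libraries of Achilles tendon from male C57Bl/6 mice aged 6 weeks. The authors deposited UMI counts per gene and cell, a table of natural log values, and a table with each cell's library and population name. Per the submitters' processing notes, Cell Ranger, Seurat 2.3.4, R 3.5.2 and the mm10 build were used, with no steps or filters given in the sources used here. The deposited natural log values equal ln(1 + 10000 × count / cell total) to within 5.0e-10 and were used for that check alone, and every result rests on the deposited counts. Of 15750 gene entries, 4 under a repeated name (0.0186% of UMIs) were left out. No cell was removed and no doublet caller was run. The 10 genes, the lists of 32 other matricellular names and 23 receptor names and the tests were chosen with earlier results of these data known.

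UMIs were summed per library and authors' population. Sums of 5 or more cells, in at least 3 libraries with both sides, entered edgeR 4.0.16 (limma 3.58.1, R 4.3.3) with TMM scaling, filterByExpr, the quasi-likelihood test and Benjamini-Hochberg adjustment over all genes tested, at 0.05. The SE of a log2 fold change is its absolute value divided by the square root of the F value of the quasi-likelihood test. It is thus derived from the test and is not a separate estimate of the error. The library was a block, since both sums come from cells of the same library, and the correlation of their deviations ranged from -0.0327 to 0.171. Named genes of the lists are those with the 2 largest rises and falls among called genes with a mean of 100 or more CPM on the higher side. For each of the 10 genes, the 3 genes most like it are named. Shares of cells were taken after thinning to 2400 UMIs, leaving out 114 shallower cells. Alternatives were DESeq2 1.42.0, no filter, no block, thinned cells, another minimum of cells, each library left out, and populations rebuilt by clustering a random part of each cell's UMIs and tested on the rest (17 clusters, 91.8% of cells with the same name). The tests were tried on simulated counts with changes of 2 on the log2 scale. They recovered 88% of these for tendon fibroblasts 2 against bursal fibroblasts, the lowest value, and up to 100%. False genes were 1.68% to 7.44% of those called at 0.05, with the highest value for all tendon fibroblasts against all other cells. Intervals and floors (3 counts) cover counting error only. Other analyses used python 3.11.15, numpy 2.4.6, pandas 2.3.3 and scipy 1.17.1. One marker result is not reported here.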

Additional observations from a re-analysis of the deposited data

Results flagged for a closer look

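Of 35 sets of 4 library values that were looked at, 5 had a library whose gap to the nearest of the others exceeded Dixon's 95% critical value. That value flags about 1 in 20 sets of independent, normally distributed values. Some sets here rest on few UMIs, and sets of different genes share libraries and populations, so the 5 cannot be read against that rate. Thbs1 in red blood cells stood at 111 CPM in library 2 and at 0 in the other libraries. All 33 UMIs came from 1 cell, which also held 132 Pf4 and 42 Ppbp UMIs, genes known from platelets, and in which 0.800% of UMIs were globin. In immune cells of library 2, likewise, the 15 Thbs1 UMIs came from 2 cells with 13 and 32 Pf4 UMIs. These companion genes were chosen after their values were seen. Sparc in red blood cells stood at 646 CPM in library 1 against 55.6 to 60.3 CPM in the others. Of the 188 UMIs, 169 came from 1 cell with 0 globin UMIs, 44 Col1a2 UMIs and 13 Comp UMIs, and without it the level was 65.9 CPM. Sparc in endothelial cells 2 was lower in library 3, at 1312 CPM against 2133 to 2251. Tendon fibroblasts held 23.9% of Sparcl1 UMIs in library 3, against 0.485% to 4.40% in the others, beside 63.3% of that library's cells. Tnxb in pericytes was at 188 CPM in library 3, from 14 UMIs, against 34.5 to 57.4 CPM.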

How the results depend on the processing

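Over 558 values of the 10 genes under other settings, 534 kept their side of the threshold, 17 lost a call and 7 gained one. Some of the 534 are repeats that could not differ. A minimum of 3 cells gave the same sums as the minimum of 5 in all 7 comparisons. A minimum of 10 cells gave the main sums again for all tendon fibroblasts and for pericytes. For endothelial cells 1 against 2 and for nerve against vascular cells it gave the sums without library 4. A gene that was not tested under a setting has no value there, so calls that ended in this way are not among the 17. Between pericytes and endothelial cells 1, for example, Tnxb had 9 such values and Postn 10, against 12 for Thbs1. The sign changed in 9 values, all of 6 differences that were not called in either setting, such as Sparc between pericytes and endothelial cells 1, and in 0 called ones. Counts of genes called that moved by over 1.5 times follow, with the range over libraries left out. For tendon fibroblasts 1 against 2 the count was 371 with DESeq2, 1073 without the filter, 235 with thinned cells and 362 (without library 1) to 529 with a library left out. Against bursal fibroblasts, tendon fibroblasts 1 gave 503 with DESeq2, 1216 without the filter, 465 with rebuilt populations and 380 (without library 1) to 892, and tendon fibroblasts 2 gave 727 without the filter and 149 (without library 1) to 399. All tendon fibroblasts against all other cells gave 1237 with thinned cells. Endothelial cells 1 against 2 gave 570 with DESeq2, 287 thinned, 523 with rebuilt populations and 484 (without library 2) to 997. Pericytes against endothelial cells 1 gave 2918 without the filter and 494 thinned, and 2 of the 10 genes were called with thinned cells or rebuilt populations and 2 (without library 2) to 4 with a library left out. Nerve against vascular cells gave 3223 without the filter, 2896 with 10 or more cells per sum, 1193 thinned and 1008 (without library 2) to 2896 (without library 4), with 2 (without library 1 or 2) to 4 of the 10 genes called. The cause of these moves was not tested. Without the replicate block, Tnc gained its call between tendon fibroblasts 1 and 2 (log2 fold change -1.52, adjusted p = 0.0403) and lost it between tendon fibroblasts 2 and bursal fibroblasts (1.93, 0.0802), and no other call of the 10 genes changed. A minimum of 10 cells could not be used in the 3 comparisons between single fibroblast populations, nor thinned cells against bursal fibroblasts, since fewer than 3 libraries remained. Depth limits the values outside tendon fibroblasts of Thbs4, Tnc, Thbs3, Comp and Postn, which rest on 57, 128, 199, 204 and 220 UMIs.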
